A study of Mus musculus with 2 samples.

Results

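Contactins and contactin-associated proteins are neuronal cell adhesion proteins. The sites of 9 of their genes (Cntn1, Cntn2, Cntn3, Cntn4, Cntn5, Cntn6, Cntnap1, Cntnap2 and Cntnap4) were examined in lists of N6-methyladenosine (m6A) made by GLORI, a chemistry that deaminates unmethylated adenosine, so that it is read as G, and leaves m6A to be read as A. A site belonged to a gene when it lay inside the gene's interval on the gene's strand (GENCODE release M21, GRCm38). The genes were chosen by family name with their numbers of sites already known, so the numbers are given as a description and without a test. The cerebellum list held 284 such sites of 79355 (0.358%), and the cerebrum list held 515 of 188295 (0.273%). Together they made up 740 distinct positions of the 219409 in either list, and 59 of the 740 were in both.

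RNA of the cerebellum and of the cerebrum was taken, per the methods, from 1 female F1r hybrid (C57BL/6J mother, PWK/PhJ father) at postnatal day 0 and was GLORI-treated. The methods describe both poly(A)+ isolation and removal of ribosomal RNA, and their GLORI section does not say which was used. Each tissue had 1 library, so there was no replicate and no test between tissues. The lists give positions only, so the depth and the methylation rate at a site are unknown, and a site can be missing from a list because the transcript was too thinly covered. In bulk tissue, fewer cells of a type and less RNA per cell cannot be told apart. Shares are given with 95% Wilson intervals, which cover counting error over sites only and treat neighbouring sites as independent. As a check of the tissue labels, exonic DRACH sites (the consensus around m6A, [A, G or T][A or G]AC[A, C or T]) were present in 13 of 13 forebrain marker genes in the cerebrum and 4 of 13 in the cerebellum, and in 3 of 10 and 8 of 10 hindbrain markers. Oligodendrocyte markers had one in 5 of 8 genes in either library, and Mog, a myelin gene of mature oligodendrocytes, had no site. The lists also held 14 and 30 chromosome Y positions, although both samples are labelled female, and Xist had 49 and 50 exonic DRACH sites.

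Contactins are immunoglobulin-superfamily proteins held at the membrane by a glycosylphosphatidylinositol anchor, and contactin-associated proteins are transmembrane relatives of the neurexins. Contactin 1 pairs with Cntnap1 at the paranodal junctions beside nodes of Ranvier, and contactin 2 (TAG-1) pairs with Cntnap2 at the juxtaparanodes, where potassium channels gather. At birth, most central axons are not yet myelinated, and the proteins are better known there for axon growth, guidance and synapse formation. Methylation of mRNA is deposited by a METTL3/METTL14 complex, is densest near stop codons and in long exons, and is sparse near splice junctions.

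For 6 of the 9 genes, at least 1 exonic DRACH site was in both lists. The one nearest to the stop codon is shown for each, because the description by transcript region turns on such sites. Each line gives 21 nt of GRCm38 on the gene's strand, with the DRACH 5-mer in capitals and the listed adenosine at its centre.
Cntn1, chr15:92339638-92339658, + strand, 59 nt after the stop codon: tcatgggaTGACTgtaattcc
Cntn2, chr1:132515493-132515513, - strand, 31 nt after the stop codon: cccaagctGGACAcccaccct
Cntn5, chr9:10904617-10904637, - strand, 5′ UTR, exon 1 of 25: ccagtgaaGGACTcagaactc
Cntn6, chr6:104863310-104863330, + strand, 93 nt after the stop codon: cttaatacAGACTtgtttgga
Cntnap2, chr6:47298569-47298589, + strand, coding sequence of exon 24 of 24: cttcacagAGACCattgacga
Cntnap4, chr8:112882161-112882181, + strand, 289 nt after the stop codon: aaatgtggAAACTttagccct
In Cntn1, Cntn2, Cntn6 and Cntnap4 the site lay in the 3′ UTR part of the last exon, and the Cntnap2 site lay in the last codons, also on the last exon. Cntn4 had no such shared site. Its only exonic DRACH sites, shown because each was in a different list, were a GGACT 18 nt after the stop codon in the cerebrum and a GAACT 1207 nt after it in the cerebellum.
Cntn4, chr6:106697629-106697649, + strand, cerebrum only: tatctgaaGGACTtgctattt
Cntn4, chr6:106698818-106698838, + strand, cerebellum only: tacgaaaaGAACTatttatta

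Listed exonic DRACH sites were mostly in Cntn1 and Cntn2, the contactins of the complexes beside the nodes. Given as cerebellum and then cerebrum, Cntn1 had 12 and 14, Cntn2 had 13 and 28, and together they held 25 of the 39 sites of the cerebellum and 42 of the 59 of the cerebrum. Cntnap2, the partner of contactin 2, had 8 and 6. The remaining genes had 5 or fewer in either library: Cntn4 had 1 and 1, Cntn5 1 and 2, Cntn6 2 and 3, and Cntnap4 2 and 5. Cntn3 and Cntnap1 had 0 in both libraries. An exonic DRACH site was thus present in 7 of the 9 genes in either library, where 35.9% of 20718 coding genes had one in the cerebellum and 46.2% in the cerebrum. Because the genes were chosen with these counts known, the 7 of 9 is not read against that background.

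**Figure D1:**
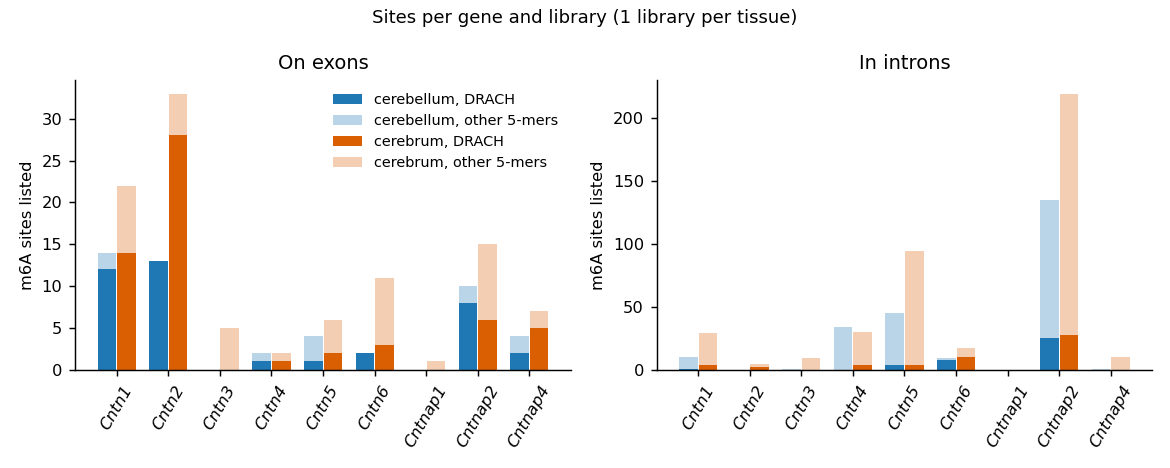
Number of listed m6A sites per gene on exons (left) and in introns (right), for 1 cerebellum library (blue) and 1 cerebrum library (orange). Solid bars are DRACH sites and pale bars sites at other 5-mers. Cntn2 in the cerebrum had the most exonic DRACH sites (28), and Cntnap2 the most intronic sites (135 and 219).

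Every exonic DRACH site of Cntn1 and Cntn2 was in the 3′ UTR of the last exon. In Cntn1 (chr15:92051165-92341967, + strand) that exon is exon 24 of 24 and 2455 nt long. Its 12 cerebellum sites lay 59 to 1761 nt after the stop codon, 6 of them within the first 500 nt, and all 12 were also in the cerebrum. The 2 sites of the cerebrum alone were the farthest ones, at 1979 and 2017 nt. In Cntn2 (chr1:132509427-132543256, - strand) the last exon, exon 23 of 23, is 3856 nt long. Its 13 cerebellum sites ran from 31 to 3694 nt after the stop codon, and again all 13 were in the cerebrum. The 15 sites of the cerebrum alone lay among them, from 183 to 3616 nt. No cerebellum-only exonic DRACH site was found in either gene.

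Both genes were alike in where the sites lay and unlike in how many more the cerebrum list held. At least 2 times as many exonic DRACH sites in the cerebrum as in the cerebellum was common, at 55.2% of the 9895 coding genes with a site in either library, and Cntn2 was among them. Cntn5 and Cntnap4 met the same criterion, making 3 of the 7 genes with a site. Without methylation rates or read counts, more sites in the cerebrum list cannot be told apart from deeper coverage of the transcript there.

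Against the adenosines available for methylation, Cntn2 and Cntn1 stood high. The 3′ UTR of the longest Cntn2 isoform has 71 DRACH adenosines, of which 13 (18.3%, interval 11 to 28.9) were listed in the cerebellum and 28 (39.4%, 28.9 to 51.1) in the cerebrum. These shares exceeded those of 93.4% and 97.3% of the 17048 coding genes with at least 5 such adenosines. Cntn1 has 52, with 12 listed (23.1%, 13.7 to 36.1) in the cerebellum and 14 (26.9%, 16.8 to 40.3) in the cerebrum, above 95.9% and 92.8% of genes. Genes without a listed site count among the 17048, and 35.9% and 46.2% of coding genes had an exonic DRACH site. A single listed adenosine, as in Cntn4 (1 of 35 in either library), stood above 70.3% and 58.7% of genes. Over all coding genes, those without a site included, 4.01% and 6.65% of 3′ UTR DRACH adenosines were listed. Cntnap2 has the longest 3′ UTR of the family, 5599 nt with 127 DRACH adenosines, of which 5 (3.94%, 1.69 to 8.89) and 3 (2.36%, 0.807 to 6.72) were listed. Its intervals include the values of all coding genes. Cntnap4, a protein of interneuron synapses, had 2 of 17 (11.8%, 3.29 to 34.3) and 4 of 17 (23.5%, 9.56 to 47.3), above 87.6% and 91.0% of genes. Cntn6, whose 3′ UTR is only 179 nt long, had 2 of 6 and 1 of 6, above 98.2% and 84.3% of genes. Its intervals reached from 3.01% to 70.0%.

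**Figure D2:**
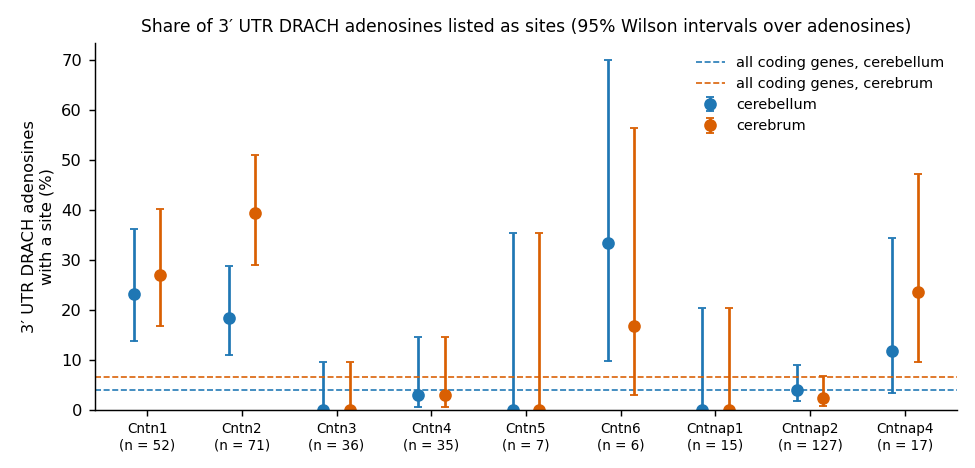
Share of the 3′ UTR DRACH adenosines of each gene's longest isoform that were listed as sites, in percent, for the cerebellum (blue) and the cerebrum (orange); n is the number of adenosines, bars are 95% Wilson intervals, and dashed lines are all coding genes. The intervals of Cntn1 and Cntn2 lie above both dashed lines, as do those of Cntn6 in the cerebellum and Cntnap4 in the cerebrum. Cntn3, Cntn5 and Cntnap1 sit at 0.

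In Cntn2 and Cntnap2 the listed share was highest in the 500 nt after the stop codon. In Cntn2, 6 of 13 DRACH adenosines there were listed in the cerebellum (46.2%) and 11 of 13 (84.6%) in the cerebrum, where all coding genes had 6.90% and 11.3%. In Cntn1 it was 6 of 13 in either library, but the 6 adenosines from 1001 to 1500 nt, with 3 listed, had a similar share. In Cntn2, 6 of the next 8 adenosines, from 501 to 1000 nt, were listed in the cerebrum and 2 of 8 in the cerebellum. Cntnap2 had 3 of 7 (42.9%) in the first 500 nt in both libraries. Beyond it, its cerebrum list had no site among the remaining 120 adenosines of the 3′ UTR, and its cerebellum list had 2, at 719 and 4542 nt. The small number of adenosines per 500 nt window leaves these percentages imprecise. Over the 9 genes, the median 3′ UTR DRACH site lay 384 nt after the stop codon in the cerebellum and 455 nt in the cerebrum, beside 498 and 507 nt for all coding genes.

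**Figure D3:**
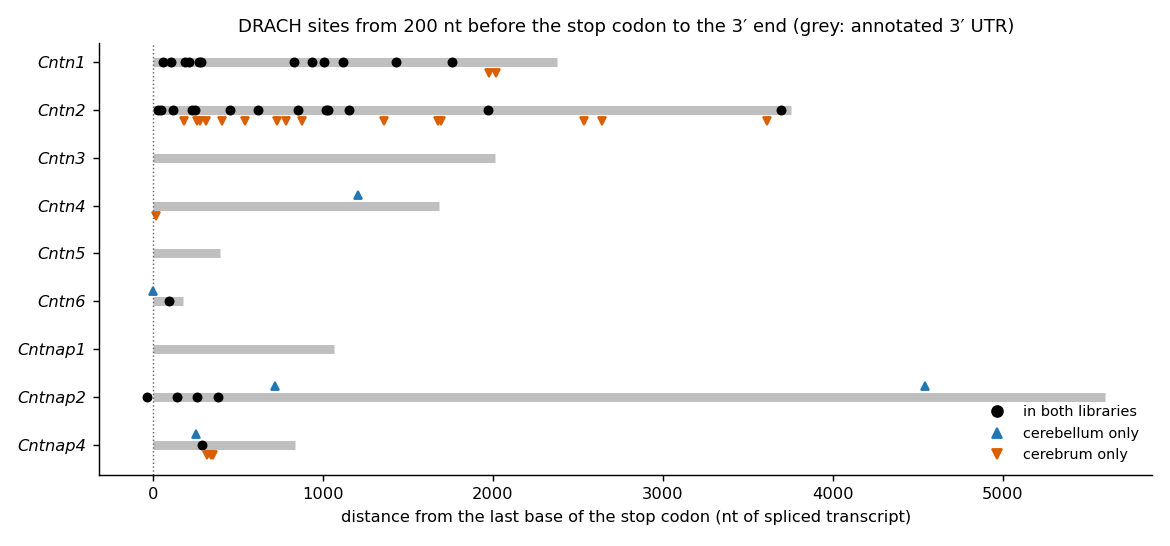
DRACH sites from 200 nt before the stop codon to the transcript end, by distance in nt of the spliced transcript from the last base of the stop codon. Grey bars are annotated 3′ UTRs, black points sites in both libraries, blue and orange triangles sites of 1 library; in Cntn1 and Cntn2 every cerebellum site was shared, and Cntnap2 is nearly empty beyond 384 nt.

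The 9 transcripts share an exon structure in which long exons are confined to the 3′ end. In the longest isoforms, the longest internal exon is 235 nt in each of the 6 contactins, 265 nt in Cntnap2, 262 nt in Cntnap4 and 354 nt in Cntnap1, whereas 20.2% of 17681 coding genes have an internal exon of at least 400 nt. The last exons range from 280 nt in Cntn6 to 5799 nt in Cntnap2. DRACH adenosines are mostly upstream of those last exons. Of 1069 in the 9 isoforms, 60.3% are in coding sequence, 34.2% in the 3′ UTR and 61.4% within 100 nt of a splice junction. The listed sites were spread over these parts in other proportions.

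Of the exonic DRACH sites, 35 of 39 (89.7%, interval 76.4 to 95.9) were in the 3′ UTR in the cerebellum and 51 of 59 (86.4%, 75.5 to 93.0) in the cerebrum, where all coding genes had 57.3% and 55.7%. With sites at other 5-mers included, the shares were 40 of 48 (83.3%) and 67 of 98 (68.4%). Of the DRACH sites in the 3′ UTR, 25 and 42 were in Cntn1 and Cntn2, so the pooled shares mostly reflect those genes. Cntnap2 had 5 of 8 and 3 of 6 in the 3′ UTR, and Cntnap4 2 of 2 and 4 of 5. Cntn6 had 2 of 2 and 1 of 3, Cntn4 1 of 1 in each library, and Cntn5 0 in both. Exons of at least 400 nt held 34 of 39 (87.2%) and 51 of 59 (86.4%), below the 95.9% and 94.7% of all coding genes. The exceptions in the 3′ UTR were the short last exon of Cntn6, and the others were in the first exons of Cntn5, Cntn6 and Cntnap2 and in internal coding exons. Within 100 nt of a junction there were 0 of 39 sites in the cerebellum, which allows a share of up to 7.69%, and 3 of 59 (5.08%, 1.74 to 13.9) in the cerebrum, beside 6.80% and 8.19% in all coding genes. The last exon held 92.3% and 88.1%, beside 74.7% and 74.2% in all coding genes, and contains 35.0% of the 1069 DRACH adenosines.

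Coding sequence was nearly free of listed DRACH sites: 1 of 645 adenosines in the cerebellum (0.155%) and 4 of 645 in the cerebrum (0.620%), against 2.48% and 4.38% over all coding genes. Restricted to coding exons under 400 nt, the difference to other genes was smaller than the counting error. There, 0 of 637 adenosines were listed in the cerebellum, which allows up to 0.471%, and 3 of 637 in the cerebrum (0.471%, 0.160 to 1.38), beside 0.302% and 0.699% over all coding genes. For Cntn1 and Cntn2 together it was 0 of 127 in both libraries, which allows up to 2.36%, beside 1.10% and 1.70% in coding genes with at least 10 listed 3′ UTR adenosines. A gene with at least 10 listed adenosines that were all in the 3′ UTR, as in Cntn1 and Cntn2, made up 11.2% of 1322 such coding genes in the cerebellum and 9.35% of 2493 in the cerebrum.

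The 4 coding DRACH sites of the cerebrum were in different places. The Cntnap2 site in the list of sequences above was the 1 coding DRACH site in both libraries, at codon 1322 of a protein of 1332 residues. Cntnap2 had a second at codon 528 (exon 10), Cntn6 one at codon 180 (exon 6) and Cntnap4 one at codon 864 (exon 17), each in the cerebrum alone. Counting all 5-mers, contactins had 19 coding positions and contactin-associated proteins 8. In a protein alignment, in which contactins share 42.1% to 64.7% of their residues pairwise and contactin-associated proteins 37.4% to 48.6%, no 2 genes had a site at the same residue or within 2 residues of it. With so few positions in proteins of 1020 to 1385 residues, matches would be rare whether or not sites are conserved, so nothing about conservation is read from it.

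DRACH sites near the 5′ end were listed in Cntn5, Cntnap2 and Cntn6. Cntn5 (chr9:9660891-10904775, - strand), of the subgroup of contactins 3 to 6 that bind the receptor phosphatase Ptprg, had no DRACH site in its 394 nt 3′ UTR, which holds 7 DRACH adenosines. Its exonic DRACH sites were both in the 5′ UTR part of exon 1: the GGACT shown above, in both libraries, and a GAACT 7 nt downstream in the cerebrum alone. Cntnap2 had a shared GAACT at chr6:45060130 in its 5′ UTR and a GGACA at chr6:45060201 in the cerebellum alone. Cntn6 had an AGACA in its 5′ UTR in the cerebrum alone. Over the 9 genes, the 5′ UTR held 3 of 39 exonic DRACH sites of the cerebellum list and 4 of 59 of the cerebrum list, 7.69% and 6.78%, with intervals from 2.65% to 20.3%. All coding genes had 2.74% and 2.87%.

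Cntn3 and Cntnap1 stood at the other end of the 9 genes, without an exonic DRACH site. Among all coding genes this was the more common state. Of 20718, 35.9% had such a site in the cerebellum and 46.2% in the cerebrum. The longest Cntn3 isoform has 117 DRACH adenosines, 36 of them in a 3′ UTR of 2014 nt, and 0 were listed in either library, which allows a listed share of up to 2.56%. Cntn3 (chr6:102162655-102573101, - strand) had 1 site in the cerebellum, in an intron, and 14 in the cerebrum, of which 5 were on exons and none was DRACH. Cntnap1 (chr11:101170523-101190724, + strand), the paranodal partner of contactin 1, has 95 DRACH adenosines with 0 listed, which allows up to 3.16%. Its only site was at a 5-mer other than DRACH in the 3′ UTR in the cerebrum. Over all coding genes, 3.07% of DRACH adenosines were listed in the cerebellum and 5.23% in the cerebrum, and the Wilson intervals of Cntn3 (0 to 3.18%) and Cntnap1 (0 to 3.89%) include the first value and not the second. For Cntn3 the limit of 2.56%, set at 3 counts, lies below the 3.07%, so its comparison in the cerebellum depends on the limit used. Over the 9 genes it was 39 of 1069 (3.65%) and 59 of 1069 (5.52%). Expression was not measured in these lists, so an unmethylated and a thinly covered transcript cannot be told apart here.

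The additional Cntn2 sites of the cerebrum were mostly at GGAC. The 3′ UTR of Cntn2 has 16 adenosines in GGAC followed by A, C or T, of which 4 were listed in the cerebellum (interval 10.2 to 49.5%) and 13 in the cerebrum (81.3%, 57.0 to 93.4). Of its 55 adenosines in other DRACH 5-mers, 9 (16.4%, 8.86 to 28.3) and 15 (27.3%, 17.3 to 40.2) were listed. Cntn1 has 3 GGAC adenosines, with 1 listed in both libraries. Cntnap2 has 9, and 0 were listed. Over all coding genes, 8.71% and 15.1% of GGAC adenosines in 3′ UTRs were listed, and 3.29% and 5.35% of the others. The split by GGAC was chosen after the values were seen.

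The overlap of both lists in exonic DRACH sites was within counting error of that of all coding genes. Of the 39 in the cerebellum, 33 were in the cerebrum (84.6%, 70.3 to 92.8), where all coding genes had 83.3%. Conversely, 33 of the 59 cerebrum sites were listed in the other tissue (55.9%, 43.3 to 67.9), beside 48.4%. The 6 sites of the cerebellum alone were in Cntnap2 (3), Cntn4, Cntn6 and Cntnap4 (1 each). Of exonic sites at other 5-mers, 2 of 10 cerebellum sites (interval 5.67 to 51%) and 2 of 43 cerebrum sites (4.65%, 1.29 to 15.5) were in the other list, where all coding genes had 40.2% and 12.5%, both within these intervals. DRACH made up 39 of 49 exonic cerebellum sites (79.6%, 66.4 to 88.5) and 59 of 102 cerebrum sites (57.8%, 48.2 to 67.0), and all coding genes had 73.6% and 59.8%.

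Most listed positions of these genes were in introns, 235 of 284 (82.7%) in the cerebellum and 413 of 515 (80.2%) in the cerebrum, while all coding genes had 17.7% and 26.1%. The genes are long, 7 of them over 200 kb, and Cntnap2 spans 2244857 bp (chr6:45059357-47304213, + strand). Per Mb of intron, Cntnap2 had 60.4 cerebellum sites and 98.0 cerebrum sites, above 92.2% and 78.0% of 968 coding genes of at least 200 kb, whose medians were 5.89 and 23.3. Cntn5 had 36.3 and 75.9, Cntn4 33.6 and 29.6, Cntn1 35.5 and 103.1, and Cntn6 24.7 and 46.7. Cntn3 (2.48 and 22.3) and Cntnap4 (3.26 and 32.6) were near those medians. Genes with few or no sites count among the 968, whose lower quartiles were 0 and 2.955. These densities count sites at all 5-mers, and at DRACH alone the order differed. Cntn6 had 22.0 and 27.5 DRACH sites per Mb, Cntnap2 11.2 and 12.5, and Cntn1 3.55 and 14.2. Cntn5 had 3.23 in each library, Cntn4 0 and 3.95, and Cntn3 and Cntnap4 0 in both. The DRACH medians of the 968 genes were 0 and 1.13. Cntn4 was the one gene of the 9 with fewer sites in the cerebrum list (32) than in the cerebellum list (36). The difference came from its intronic sites other than DRACH, 34 in the cerebellum and 26 in the cerebrum, with 1 in both. Its intronic DRACH sites went the other way, 0 in the cerebellum and 4 in the cerebrum, and its exonic DRACH sites were 1 and 1.

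Intronic sites were mostly not DRACH, 16.2% (38 of 235) in the cerebellum and 12.6% (52 of 413) in the cerebrum, as in all coding genes (14.9% and 12.5%). Of the 197 intronic sites at other 5-mers in the cerebellum, 7 were also in the cerebrum (3.55%), while 17 of the 38 intronic DRACH sites were (44.7%, 30.2 to 60.3). All coding genes had 7.29% and 39.1%, the latter within the interval of the 9 genes. Of the 52 in the cerebrum, the same 17 made up 32.7% (21.5 to 46.2), where all coding genes had 13.4%. The 17 were in 3 genes: 9 in Cntnap2, 1 in Cntn1 and 7 in Cntn6, where they lie in 1 group, so that they are not independent of each other.

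The intronic sites of Cntnap2 were concentrated at the 5′ end of the gene. Its first intron, 593.6 kb of 2.24 Mb of intron, held 119 of the 135 intronic cerebellum sites and 196 of 219 cerebrum sites. Of the intronic DRACH sites it held 24 of 25 and 26 of 28, and all 9 shared ones. Of 4 equal segments of this intron, the first 2 held 96 and 136 sites and the last 4 and 11. Cntn1 had 9 of 10 and 25 of 29 intronic sites in its first intron, 165.0 kb of 0.281 Mb of intron. In Cntn5, introns 1 to 3 (263.7, 221.5 and 246.9 kb of 1.24 Mb) held 37 of 45 and 83 of 94. In both genes these introns make up a larger part of the intron length than the first intron of Cntnap2 does. Genes of GENCODE's class TEC, which await experimental evidence, annotated on the same strand inside Cntnap2 covered 6 and 31 of its intronic sites. With them left out, the density was 57.7 and 84.1 sites per Mb.

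**Figure D4:**
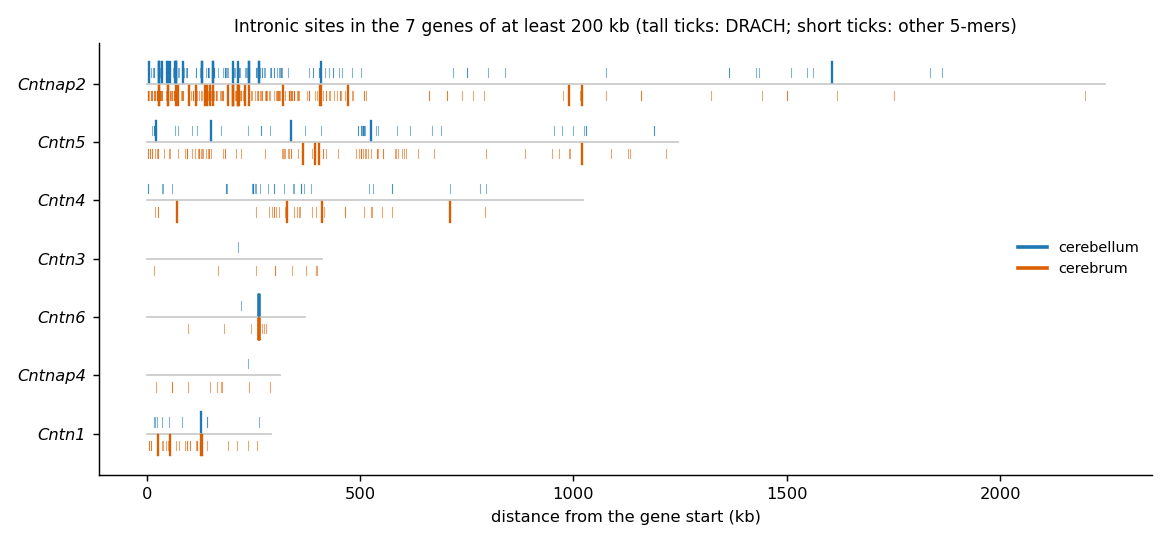
Intronic sites of the 7 genes of at least 200 kb, by distance from the gene start in kb, cerebellum above each line in blue and cerebrum below in orange. Tall ticks are DRACH sites and short ticks other 5-mers; the sites of Cntnap2 crowd the first 593.6 kb intron, and the DRACH sites of Cntn6 form 1 group.

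In Cntn6 (chr6:104492790-104863406, + strand), a contactin expressed in postnatal cerebellum, the intronic DRACH sites formed a single group. All 11 lay within 772 nt of intron 7 (chr6:104754801-104755572), 12137 nt or more from the nearest exon of the gene, with 8 in the cerebellum, 10 in the cerebrum and 7 in both. At least 5 shared intronic DRACH sites within 1000 nt, outside exons of any gene on the strand, occurred in 0.0917% of coding genes (19 of 20718), and 5 genes, Cntn6 included, had 7 or more. Most of the 20718 had no shared intronic DRACH site at all, since all coding genes together had 765. The region carries no exon of Cntn6 in GENCODE or RefSeq, and 2 of the 11 positions are in repeat-masked sequence. Each 51 nt window around the 11 sites occurs once on the GRCm38 chromosomes, also when every A is read as G as in GLORI reads. Whether an unannotated transcript covers the region was not tested. The 7 shared sites, chosen after their values were seen, are shown because the exons of Cntn6 held 1 shared DRACH site.
Cntn6, chr6:104754832-104754852, + strand: ctccaaacTGACTgactcaaa
Cntn6, chr6:104754955-104754975, + strand: ccttcactGAACTgtacaaac
Cntn6, chr6:104754996-104755016, + strand: aattcactGAACTgatctcct
Cntn6, chr6:104755021-104755041, + strand: actcaaatGAACTcaattgac
Cntn6, chr6:104755030-104755050, + strand: aactcaatTGACTgactgaac
Cntn6, chr6:104755034-104755054, + strand: caattgacTGACTgaactcat
Cntn6, chr6:104755562-104755582, + strand: ccaataatTGACTaataagac
All 7 were at TGACT (4) or GAACT (3), and 3 of the windows overlap, with their adenosines 9 and 4 nt apart.

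**Figure D5:**
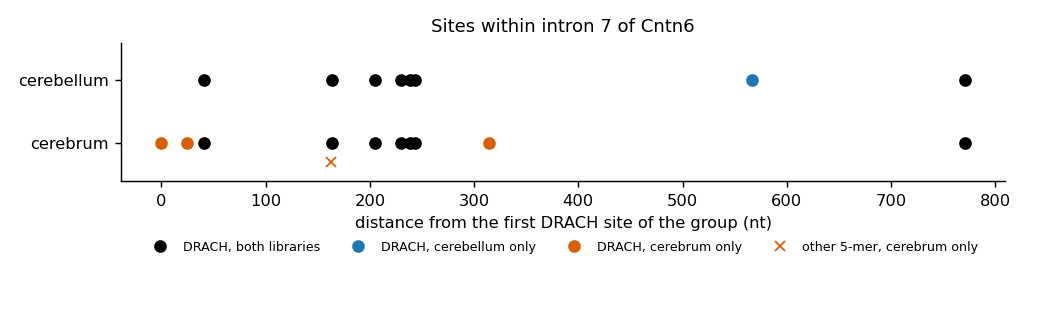
Sites of intron 7 of Cntn6 around the group of DRACH sites, by distance in nt from the first of them. Circles are DRACH sites, black where both libraries list them, and the cross is a site at another 5-mer in the cerebrum; 7 positions are black and 4 are in 1 library.

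Related genes outside the 9 were counted by lists. The other contactin-associated genes (Cntnap3, Cntnap5a, Cntnap5b and Cntnap5c) had 4 and 7 exonic DRACH sites in all, from 0 to 4 per gene. Among the 4 genes of the L1 family, whose proteins bind contactins in cis or in trans, 4 of 4 had exonic DRACH sites in either library, with Nrcam (18 and 28) and Chl1 (17 and 18) highest. Of 7 genes for other ligands and receptors, 6 had sites, led by Ptprz1, a receptor phosphatase that binds contactin 1, with 64 and 64. Of 6 genes for nodal, paranodal and juxtaparanodal proteins, 5 (cerebellum) and 6 (cerebrum) had sites, led by Ank3, which encodes ankyrin-G, with 70 and 81. The median per gene was 2 and 3 in the 9 genes, 13 and 17.5 in the L1 family, 10 and 11 in the ligands and receptors, 7 and 7.5 in the nodal list and 0 in all coding genes.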

How the data were processed

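GLORI sites were read from the deposited BED lists, whose only measurement is a genomic position; per the labels they were made on mm10. According to the methods, GLORI-tools was run by the authors on mm10 and on a PWK-substituted copy. They united both sets and kept sites above a minimum methylation rate and read count. As high-confidence sites the paper used only GLORI sites that overlapped m6A-seq peaks, a separate antibody-based assay. That overlap was not applied here, so the sites counted are GLORI calls alone. Rates and counts were not used here, so depth is unknown. Positions were placed on GENCODE M21 models and GRCm38.p6 sequence (RefSeq, lower case repeat-masked). A site on exons was given the longest covering isoform with complete coding sequence and both UTRs, and distances run from the last base of the stop codon. The members and lists were chosen with earlier results of these data known. All 9 genes are named, with 4 paralogs and 17 partners as lists. Proteins translated from the isoforms were aligned with mafft 7.526. Python 3.11.15, pysam 0.24.0, scipy 1.17.1 and matplotlib 3.10.9 were used. Tested on simulated data, all 3 assignments (region, 5-mer and exon) were recovered for 100% of 10230 sites on 1023 transcripts. Each simulated site was placed back on the transcript it was drawn from, so the choice of isoform was not tested. The simulated 5-mers were checked on spliced sequence, whereas those of listed sites were read from the genome. A limit for a count of 0 is 3 counts of the total.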

Additional observations from a re-analysis of the deposited data

How the results depend on the processing

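Of 54 alternative values, 35 stayed within the interval of the reported share or within 1.5 times the reported count. The other 19 follow in the order cerebellum, cerebrum. Counting sites on exons only left 49 and 102 sites. RRACH in place of DRACH lowered the exonic share to 59.2% and 46.1%, and sites in both libraries gave 94.3% in each. All exonic sites, in place of DRACH sites, lowered the part found in both libraries to 34.3% in the cerebrum. DRACH sites alone were intronic in 49.4% and 46.8%. The 3′ UTR share was 91.4% in each library over shared sites and 86.4% over DRACH sites in the cerebrum. At least 200 nt in place of 400 nt gave 100% and 98.3% of sites in long exons; without last exons, 0 of 3 and 0 of 7 sites remained in exons of 400 nt. A distance of 200 nt from a junction gave 23.1% and 22.0%, and 50 nt gave 1.69% in the cerebrum. No paired analysis was possible because each tissue has 1 library, and no replicate could be left out. The unknown depth limits every comparison of the 2 lists.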

Other observations

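The 17 intronic DRACH sites of these genes in both libraries were mostly at 2 of the DRACH 5-mers. GAACT accounted for 8 and TGACT for 6, together 14 of 17 (82.4%, interval 59.0 to 93.8), where the same 5-mers made up 221 of 765 (28.9%) shared intronic DRACH sites of all coding genes and 7 of 33 (21.2%) shared exonic ones of the 9 genes. The 7 sites of the Cntn6 group lie close together, so the 17 are not independent, and the 5-mers were chosen after their counts were seen.

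Among intronic sites at other 5-mers, those followed by TC and those at a spacing of exactly 6 nt were counted, in the 9 genes and in all coding genes. The cerebellum had 197 such sites, of which 51 were before TC (25.9%, interval 20.3 to 32.4) and 30 lay 6 nt from another (15.2%, 10.9 to 20.9), 25 of these before TC. All coding genes had 24.3% before TC and 12.5% at that spacing. The cerebrum had 361, of which 64 were before TC (17.7%, 14.1 to 22.0) and 18 were 6 nt from another (4.99%, 3.18 to 7.74), beside 16.5% and 6.49% in all coding genes. The 6 nt pairs were in Cntn4, Cntn5 and Cntnap2, and Cntn4 had 10 such cerebellum sites and 0 cerebrum sites. These counts were not planned. Other spacings, and the share of all intronic adenosines that precede TC, were not counted, so neither feature is shown to be enriched. Of the 551 intronic positions at other 5-mers in either library, 8 had a 51 nt window that occurs more than once with A read as G, and of the 65 exonic DRACH positions 0 had.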
